A study of Homo sapiens with 12 samples.

Results

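SCC-15 and CAL-27 are established human cell lines grown from squamous cell carcinomas of the tongue. The comparison here is between their control libraries, 3 from SCC-15 and 3 from CAL-27, which make up 6 of the 12 libraries of the series, and it covers every gene in the deposited count table. The control libraries are titled shControl, the name of a non-targeting short hairpin, while their other labels call the cells wild type and untreated. Which of these applies is not given in the sources used here. The other 6 libraries, 3 from each line, are titled shTTK after a hairpin against TTK, the kinase that starts the spindle checkpoint. They entered the statistical fit and were used as a separate look at the same line difference. Whether the hairpin cells were pools or single clones is not given either. All 12 are poly(A) RNA libraries of 1 labelled batch. The labels do not say that replicates were separate cultures, so the p-values measure only the spread between these libraries, and each carcinoma is represented by 1 line.

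Stratified oral epithelium renews from a basal layer that makes KRT5 and KRT14 and is maintained by the transcription factor TP63. As cells leave that layer they switch to suprabasal keratins, KRT4 and KRT13 in soft oral mucosa, and build desmosomes and a cornified envelope. Simple, gland-like epithelia instead make KRT8, KRT18 and KRT19. Squamous carcinomas keep parts of this programme, lose others, and often secrete inflammatory cytokines through the transcription factor NF-κB, which is held in the cytoplasm by inhibitors such as IκBα until a receptor or kinase releases it.

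Levels are given as CPM, counts per 1000000 counts of the library after scaling with edgeR's trimmed mean factors. Means are ± SD over 3 libraries, and log2 fold changes are SCC-15 minus CAL-27 with ± SE. Of 16946 genes tested with edgeR's quasi-likelihood test, 76.0% differed at a Benjamini-Hochberg adjusted p under 0.05, and in 37.8% the gene was higher in SCC-15 and in 38.2% lower. In the text below a gene is called higher or lower in SCC-15 when it passed that test and differed at least 2-fold. By this rule 2318 genes (13.7%) were higher and 3108 (18.3%) were lower in SCC-15, with a median log2 fold change of -0.01 over all genes. The 3 libraries of each line did not overlap for 77.3% of genes.

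Control library totals ran from 16180755 to 18484112 counts. SCC-15 control library 1 stood apart from libraries 2 and 3, mostly in mitochondrial transcripts: MT-RNR2, a mitochondrial ribosomal RNA, took 0.681% of its counts against 0.208% and 0.219%. Leaving it out gave 2348 genes higher and 3040 lower. TTK itself was measured at 46.4, 48.4 and 53.4 CPM in the CAL-27 controls and at 67.5, 69.4 and 72.9 CPM in the SCC-15 controls, which did not overlap (log2 fold change 0.50 ± 0.061, edgeR adjusted p = 2.58e-11). In the shTTK libraries it was 33.9 ± 1.57 CPM in CAL-27 and 30.1 ± 3.8004 CPM in SCC-15, below the controls in both lines. Of 10 epithelial marker genes none was at 0 in either line, and their summed level was 5113 to 5404 CPM in CAL-27 and 4505 to 4593 CPM in SCC-15. The members were less alike than the sums, with 6 of the 10 at least 2-fold lower and 2 at least 2-fold higher in SCC-15. Leukocyte markers summed to 18.5 to 22.3 CPM in CAL-27 and 9.58 to 11.2 CPM in SCC-15. Of the 12 leukocyte markers 3 were tested, and 2 of these were at least 2-fold lower and 0 higher in SCC-15. Markers at 0 counts were PTPRC, CD3D and MS4A1 in CAL-27, and CD3D, CD3E, CD8A, MS4A1 and LYZ in SCC-15. PTPRC, the pan-leukocyte surface phosphatase, had 1, 2 and 1 counts in the SCC-15 controls.

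The 2 lines made different keratins. KRT14, the partner of KRT5 in basal cells (chr17:41582279-41586921, hg38), was at 3.203, 4.33 and 2.79 CPM in the CAL-27 controls and at 729, 767 and 793 CPM in the SCC-15 controls. Its groups were far apart, with a log2 fold change of 7.78 ± 0.062 (edgeR adjusted p = 8.71e-68). KRT13, the type I keratin of the oral suprabasal layer, was at 0.458, 0.932 and 0.619 CPM in CAL-27 and at 997, 995 and 972 CPM in SCC-15. Its partner KRT4 had no count in any CAL-27 control library and 51.3, 50.4 and 45.6 CPM in SCC-15, at least 849-fold higher when 3 counts over the CAL-27 group are taken as the floor. In bulk RNA, fewer cells making a transcript and less of it per cell cannot be told apart. Both suprabasal partners were near or at the limit of detection in CAL-27 and clearly measured in SCC-15.

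Of the 8 tested basal and hyperproliferative keratins, 5 were higher and 1 was lower in SCC-15, with a median log2 fold change of 1.44, against the 13.7% and 18.3% of all genes. KRT5 was 886 ± 31.9 CPM in CAL-27 and 2658 ± 26.98 CPM in SCC-15. KRT17, which marks activated and tumour keratinocytes, was 243 ± 31.9 and 1251 ± 7.497 CPM. KRT6A, the wound keratin, was 41.7 ± 1.38 and 1518 ± 101 CPM, while its neighbour KRT6B was lower in SCC-15, at 55.3 ± 5.86 and 1.27 ± 0.336 CPM. The KRT6 genes, like KRT14, KRT16 and KRT17, are close copies, and how reads that match more than 1 of them were counted is not given in the sources used here, so the split between copies is uncertain.

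Simple keratins divided. KRT8 was at 1842, 1879.7 and 1806 CPM in CAL-27 and 813, 841 and 838 CPM in SCC-15, and KRT18, its partner, at 667 ± 7.15 and 307 ± 3.14 CPM, so both were lower in SCC-15 by log2 fold changes of -1.15 and -1.12. KRT19, which has no fixed partner and is found in basal cells of oral mucosa as well as in glands, was at 0.743, 0.932 and 0.805 CPM in CAL-27 and at 192, 199.9 and 189 CPM in SCC-15. KRT7 was 29.5 ± 1.65 and 341 ± 9.95 CPM. Over the 7 tested simple keratins 2 were higher and 4 lower, and over the 6 tested suprabasal keratins 4 were higher (KRT1, KRT4, KRT9 and KRT13) and KRT78 was lower. The plot of identity genes shows these keratins library by library.

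**Figure D1:**
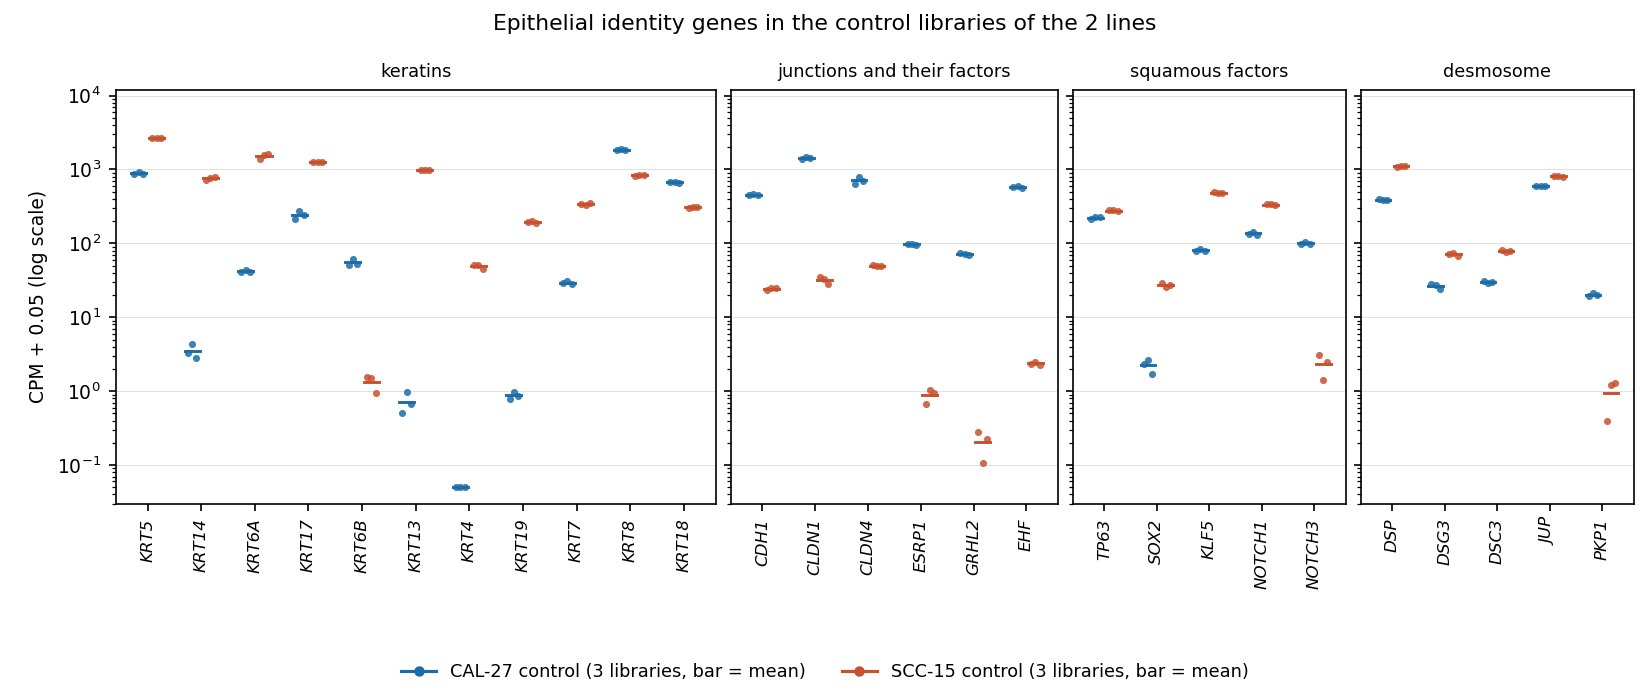
Per-library levels (CPM + 0.05, log scale) of keratins, junction genes, squamous transcription factors and desmosome genes in the 3 CAL-27 (blue) and 3 SCC-15 (orange) control libraries, with a bar at each mean. The points of the 2 lines are separate for every gene drawn, with KRT14, KRT13, KRT4 and KRT19 high in SCC-15 and CDH1, CLDN1, ESRP1, GRHL2 and EHF high in CAL-27.

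Among the factors that set squamous identity, TP63 was at a similar level in both lines, while others differed in either direction. TP63 was at 215, 226 and 231 CPM in CAL-27 and 278, 278 and 275 CPM in SCC-15, a small difference that passed the test (log2 fold change 0.31 ± 0.032, edgeR adjusted p = 6.21e-14). SOX2, amplified in many squamous carcinomas, was 2.18 ± 0.462 and 27.3 ± 1.58 CPM. KLF5, a basal epithelial factor, was 80.2 ± 2.26 and 484 ± 8.39 CPM, and both were higher in SCC-15. EHF, an ETS factor of differentiating epithelia, was lower there, with 571, 593 and 568 CPM in CAL-27 against 2.29, 2.47 and 2.23 CPM in SCC-15. GRHL2, which maintains epithelial junction genes, was 71.8 ± 1.72 against 0.154 ± 0.0877 CPM, and its relative GRHL1 was 28.1 ± 1.67 against 3.12 ± 0.493 CPM. OVOL1, a repressor that lets keratinocytes leave the cell cycle, was 19.3 ± 2.903 against 0.309 ± 0.208 CPM. Across 27 tested squamous lineage factors 10 were higher and 9 lower (median 0.31), so neither direction prevailed in the list.

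Late differentiation genes were also mixed. FLG, which encodes the precursor of filaggrin, was 0.5902 ± 0.1898 CPM in CAL-27 and 24.3 ± 0.814 CPM in SCC-15, and TGM1, the transglutaminase that crosslinks the envelope, was 2.12 ± 0.295 and 14.03 ± 1.08 CPM. CALML3, a calmodulin-like protein of differentiating keratinocytes, was lower instead, at 19.5 ± 0.822 against 0.09598 ± 0.06597 CPM. The envelope scaffold genes PPL and EVPL were 315 and 78.5 CPM in CAL-27 against 157 and 58.6 CPM in SCC-15. Of 45 cornified envelope genes, 23 were too low in these libraries to be tested, and of the other 22 there were 6 higher and 8 lower. Kallikreins, the serine proteases that shed surface squames, and their SPINK inhibitors were higher as a group: 7 of 9 tested members were called higher and 0 lower (median 2.97), among them KLK11 at 0.199 ± 0.1602 against 36.95 ± 5.04 CPM and KLK10 at 2.797 ± 0.115 against 67.5 ± 3.82 CPM.

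S100 calcium-binding proteins split by member. The antimicrobial pair S100A8 and S100A9, which form calprotectin, was below 1 CPM in every SCC-15 control library. S100A9 was at 526, 575 and 583 CPM in CAL-27 and 0.171, 0.803 and 0.235 CPM in SCC-15, and S100A8 at 44.8 ± 0.986 and 0.09598 ± 0.06597 CPM. S100A7, or psoriasin, was 34.5 ± 0.317 against 0.0386 ± 0.0334 CPM. In the other direction S100A14 was 51.7 ± 2.51 against 404 ± 15.002 CPM, S100A2, a TP63 target of basal cells, was 445 ± 19.1 against 1119 ± 59.9 CPM, and S100A11 was 196 ± 6.75 against 609 ± 7.76 CPM. Of 17 tested S100 genes 7 were higher and 7 lower, 41.2% each way, above the share of all genes in both directions.

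Cell junctions differed by type. E-cadherin (CDH1), the adhesion receptor of adherens junctions, was at 444, 459 and 448 CPM in CAL-27 and at 23.1, 24.7 and 24.6 CPM in SCC-15. The lines did not overlap, and CDH1 was 18.7-fold lower in SCC-15 (log2 fold change -4.22 ± 0.042, edgeR adjusted p = 1.19e-76). The tight junction claudins CLDN1 and CLDN4 were 1424 ± 43.4 and 715 ± 82.98 CPM in CAL-27 against 31.98 ± 3.64 and 49.9 ± 1.59 CPM in SCC-15. ESRP1, the splicing regulator that keeps epithelial isoforms, was at 97.5, 98.6 and 94.99 CPM in CAL-27 and 0.629, 0.976 and 0.8796 CPM in SCC-15. In all, 18 of 32 tested adherens and tight junction genes were lower and 2 higher, the latter being NECTIN1 (105 ± 5.49 against 460.3 ± 6.705 CPM), an immunoglobulin-type adhesion receptor, and NECTIN3. EPCAM, chosen after its value was seen, was 277 ± 4.23 against 206 ± 3.18 CPM, a difference under 2-fold.

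Desmosome genes did not follow the cadherin of the adherens junction. DSP, the desmosomal plakin that anchors keratin filaments, was at 401, 380.3 and 382 CPM in CAL-27 and 1093, 1126 and 1120.3 CPM in SCC-15. DSG3 and DSC3, the desmosomal cadherins of lower epithelial layers, were 26.6 ± 2.14 and 29.9 ± 1.03 CPM in CAL-27 against 70.6 ± 2.79 and 78.6 ± 2.06 CPM in SCC-15. PKP1, a plakophilin of upper layers, was lower, at 20.1 ± 1.01 against 0.907 ± 0.491 CPM. Of 10 tested desmosome genes 3 were higher and 2 lower (PKP1 and DSC2). Hemidesmosome and laminin-332 genes, which tie basal cells to the basement membrane, were higher for 2 and lower for 0 of 10. The higher ones were PLEC, the plakin of that junction (635 ± 33.4 against 2036 ± 74.99 CPM), and CD151, a tetraspanin that binds laminin receptors (84.4 ± 3.999 against 296 ± 6.63 CPM). Among integrins 7 of 13 were lower and 1 higher (ITGA7, whose call was lost at a log2 fold change of 0.90 without CAL-27 control library 1), with ITGB6, the subunit of the αvβ6 receptor that releases TGF-β, at 57.3 ± 0.795 against 0.442 ± 0.215 CPM.

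**Figure D2:**
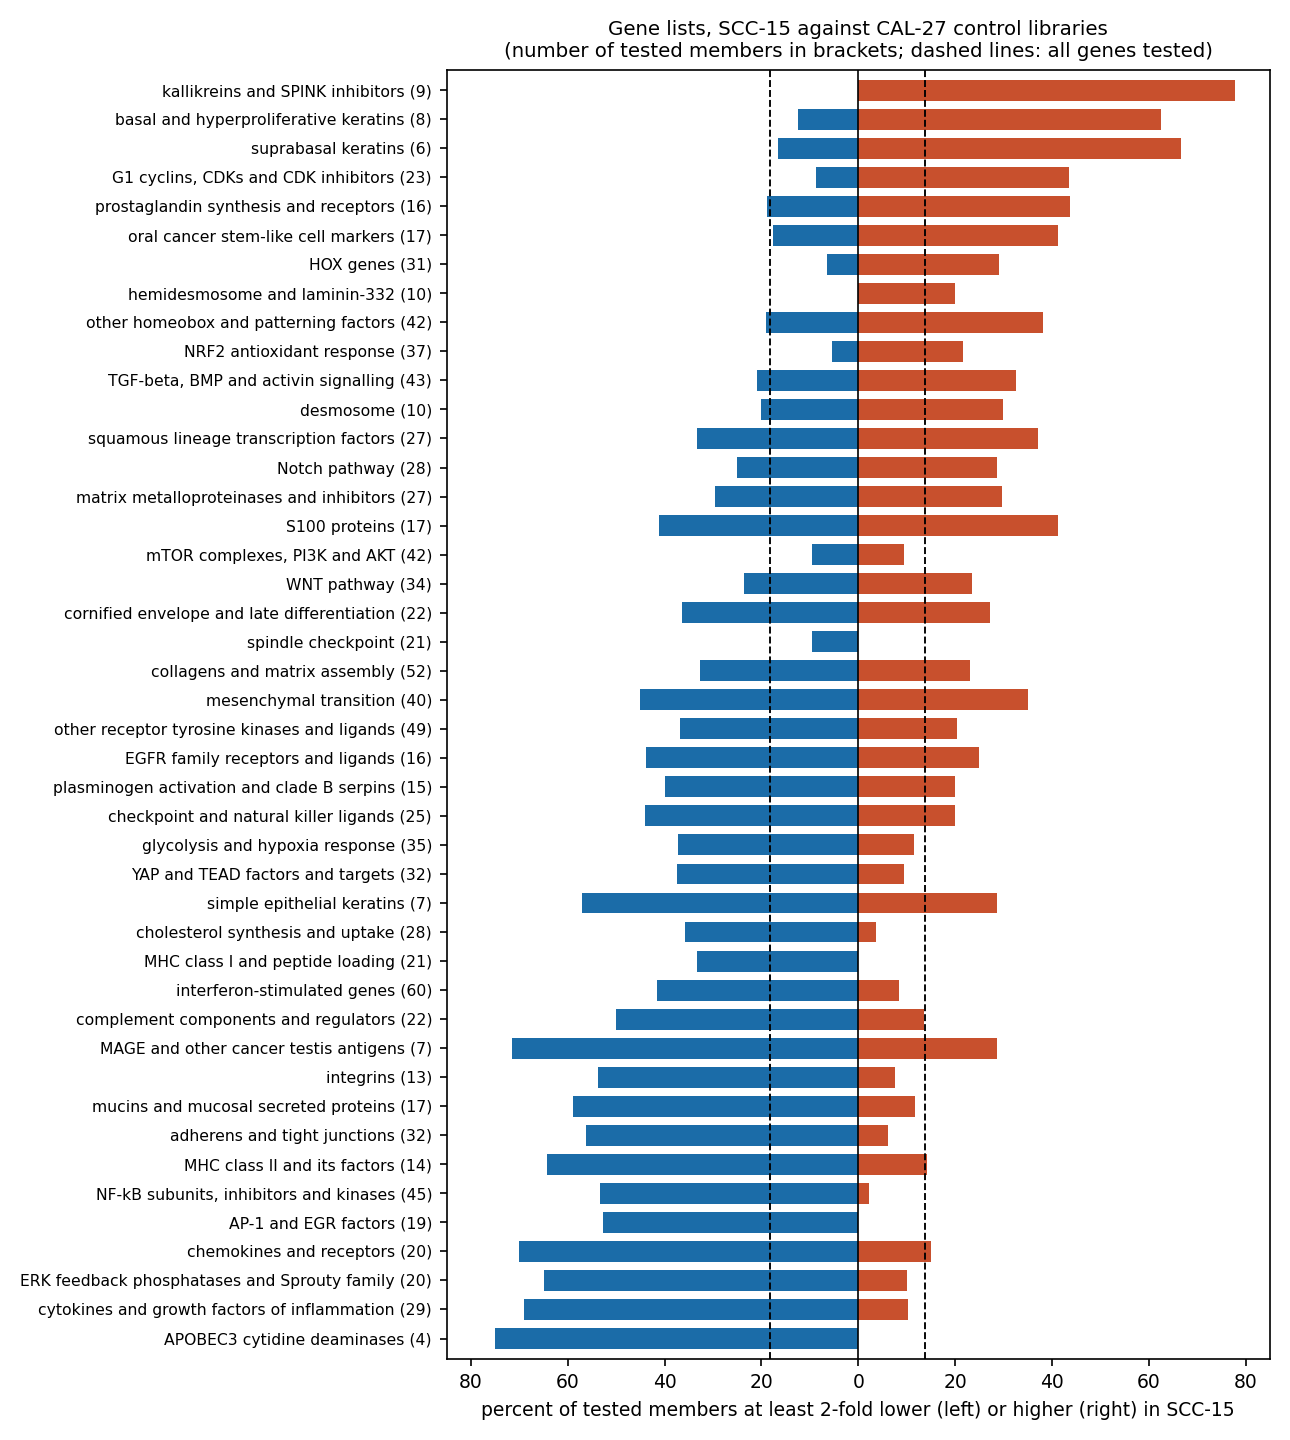
Share of the tested members of each gene list that were at least 2-fold lower (blue, to the left) or higher (orange, to the right) in the SCC-15 controls, in percent, with the number of tested members in brackets and dashed lines at the 18.3% and 13.7% of all genes tested. Kallikreins, basal keratins and suprabasal keratins extend farthest to the right, and cytokines, chemokines and ERK feedback genes far to the left, while mTOR and spindle checkpoint genes stay inside the dashed lines on both sides.

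The mesenchymal transition list did not move as a block. VIM, the vimentin filament gene that marks mesenchymal cells, was at 0.572, 0.439 and 0.124 CPM in CAL-27 and at 160.4, 161 and 166 CPM in SCC-15 (log2 fold change 8.69 ± 0.10). TWIST2, a transition factor, had no count in the CAL-27 controls and 8.97, 10.3 and 8.91 CPM in SCC-15, at least 162-fold higher. L1CAM, a neural adhesion molecule, was 1.94 ± 0.254 against 63.1 ± 1.5005 CPM. The repressors SNAI2 and ZEB1, chosen after their values were seen, were 27.7 ± 0.746 and 0.233 ± 0.104 CPM in CAL-27 against 96.6 ± 0.686 and 4.19 ± 0.26001 CPM in SCC-15.

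Other members of the list were higher in CAL-27. SPARC, a collagen-binding matricellular protein, was at 543, 556 and 542 CPM there and at 0.0571, 0.0574 and 0 CPM in SCC-15. That is 2 counts over the SCC-15 group, and the ratio of 14220.2 has a 95% counting interval of 3936 to 117426. TNC, tenascin C, was 1169 ± 18.7 against 14.7 ± 0.889 CPM, while INHBA, the activin A subunit, was 118, 149 and 111 CPM in CAL-27 against 0.171, 0 and 0 CPM in SCC-15. The latter came from 3 counts, a ratio of 2196 (95% counting interval 751 to 10652). Fibronectin (FN1) and N-cadherin (CDH2) were 263 ± 5.16 and 35.1 ± 1.24 CPM in CAL-27 against 51.9 ± 1.87 and 5.96 ± 1.65 CPM in SCC-15. Of 40 tested genes on the list 14 were higher and 18 lower (median -0.45). Lower E-cadherin and higher vimentin in SCC-15 stood beside lower N-cadherin and fibronectin in the same libraries. Fibroblast markers summed to 351 to 360 CPM in CAL-27 and 238 to 250 CPM in SCC-15. Of the 7 tested markers 4 were lower and 1 higher in SCC-15. PDGFRA, a fibroblast receptor, was at 0 counts in both lines, COL3A1 and DCN only in CAL-27, and COL1A2 and FAP only in SCC-15.

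Matrix and protease genes were divided as well. COL7A1, the anchoring fibril collagen of basement membranes, was 159 ± 4.16 against 584 ± 31.3 CPM, while COL4A2, a chain of basement membrane collagen IV, was 282 ± 14.9 against 43.01 ± 1.19 CPM. AGRN and LAMA5, a basement membrane proteoglycan and a laminin chain, were 1615 and 1029 CPM in CAL-27 against 1533 and 1649 CPM in SCC-15, both under 2-fold. Over 52 collagen and matrix assembly genes 12 were higher and 17 lower. The proteases MMP12, MMP13 and MMP2, an elastase, a collagenase and a gelatinase, were 0.233 ± 0.0621, 6.21 ± 1.36 and 1.14 ± 0.426 CPM in CAL-27 against 25.5 ± 1.38, 52.9 ± 1.09 and 15.04 ± 0.878 CPM in SCC-15. TIMP3, a matrix-bound inhibitor of such proteases, was 3.06 ± 0.222 against 136 ± 4.47 CPM. Their list held 8 higher and 8 lower genes of 27.

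Of 15 plasminogen activation genes and clade B serpins 3 were higher and 6 lower (median -0.21, and from -0.34 to -0.040 with 1 control library left out). PLAU, the urokinase activator, was at 1159, 1295 and 1180.0 CPM in CAL-27 and 33.2, 33.1 and 31.7 CPM in SCC-15, and PLAT, the tissue activator, was 266 ± 8.99 against 14.9 ± 1.01 CPM. SERPINB2, an inhibitor of urokinase, was at 0.458, 1.04 and 0.186 CPM in CAL-27 and 38.5, 32.2 and 34.2 CPM in SCC-15. The lines did not overlap for any of these 3. The other lower members were the urokinase receptor PLAUR, SERPINE2 and the clade B serpins SERPINB4 and SERPINB9, so serpins were found in both directions. The squamous serpins SERPINB13 and SERPINB5 were 3.995 ± 0.616 and 41.6 ± 2.1995 CPM in CAL-27 against 115 ± 3.49 and 175 ± 5.696 CPM in SCC-15.

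**Figure D3:**
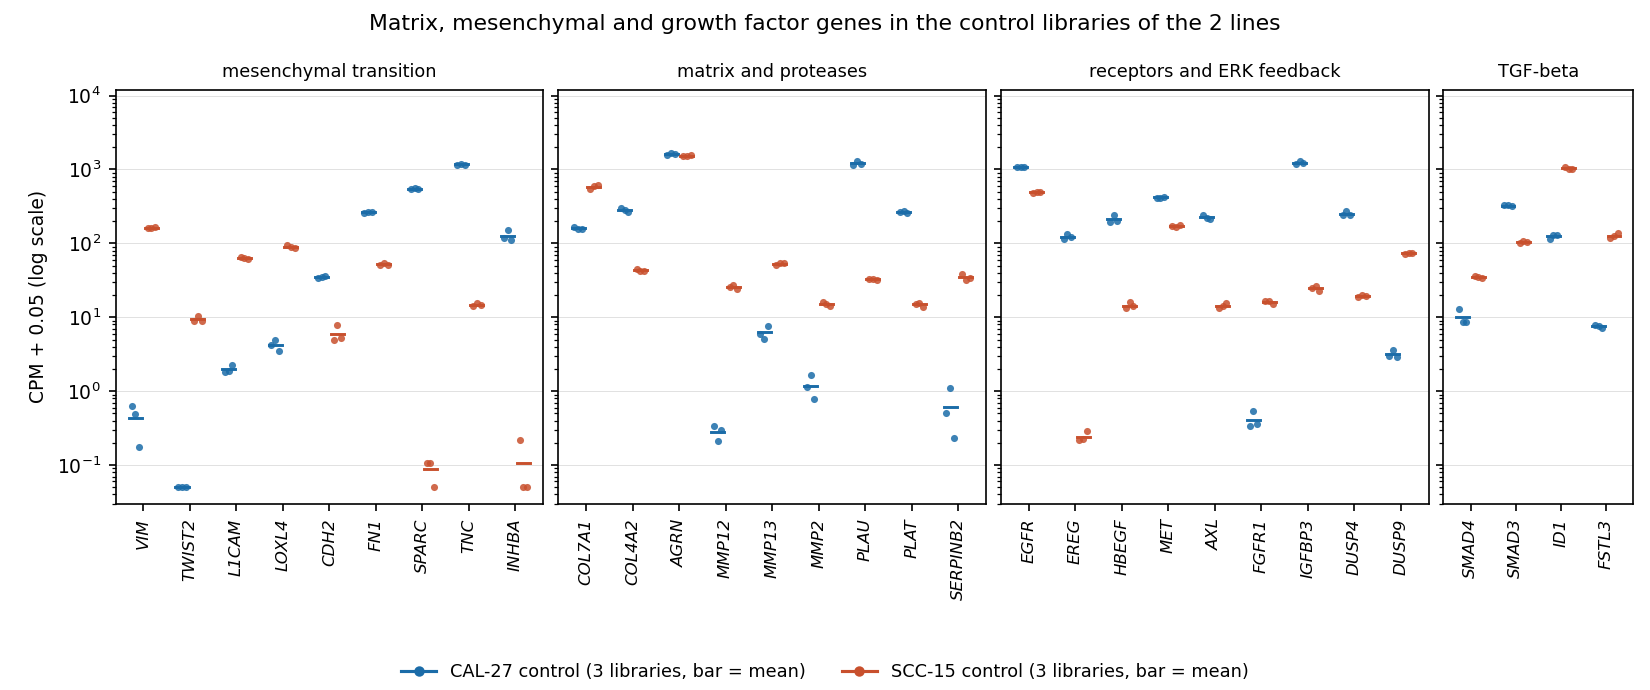
Per-library levels (CPM + 0.05, log scale) of mesenchymal transition, matrix, protease, receptor, ERK feedback and TGF-β genes in the 3 CAL-27 (blue) and 3 SCC-15 (orange) control libraries, with a bar at each mean. VIM, TWIST2, MMP12 and FGFR1 are high in SCC-15, and SPARC, INHBA, TNC, EREG and IGFBP3 are high in CAL-27, whereas AGRN lies at almost the same level in both.

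Most inflammatory genes tested were higher in CAL-27. Of 20 tested chemokines and receptors 14 were lower and 3 higher (CCL5, CCL26 and ACKR3) in SCC-15, with a median log2 fold change of -6.07, or -5.86 with genes at 3 counts or fewer in a line placed at their bound. Without the count filter, which adds list members near 0 in both lines, the median over 26 members was -4.21. CCL2, which recruits monocytes, was at 1406, 1562 and 1536 CPM in CAL-27 and 0.171, 0.115 and 0.0586 CPM in SCC-15. CXCL8, the neutrophil chemokine interleukin-8, was at 523, 621 and 583 CPM in CAL-27 and 0.971, 0.746 and 0.8796 CPM in SCC-15. CXCL1, another neutrophil chemokine, was at 398, 428 and 436 CPM in CAL-27 and 0, 0 and 0.352 CPM in SCC-15. All 3 were abundant in every CAL-27 library and at trace level in every SCC-15 library. CX3CL1, or fractalkine, was 106 ± 7.51 against 0.153 ± 0.0869 CPM.

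The start regions of 4 of these chemokine genes and of NFKBIA, which encodes IκBα, are shown because they hold the same stretch of letters. They are the 250 bases before the RefSeq start (GRCh38.p14, gene strand, 5′ to 3′): CXCL1 at chr4:73869143-73869392 and CXCL8 at chr4:73740319-73740568 on the plus strand, CXCL2 at chr4:74099196-74099445, CXCL3 at chr4:74038690-74038939 and NFKBIA at chr14:35404750-35404999 on the minus strand. CXCL2 and CXCL3 were chosen after their values were seen. Capitals mark GGAATTTCC or its reverse complement GGAAATTCC, the pattern that NF-κB dimers of RELA are known to bind.
CXCL1: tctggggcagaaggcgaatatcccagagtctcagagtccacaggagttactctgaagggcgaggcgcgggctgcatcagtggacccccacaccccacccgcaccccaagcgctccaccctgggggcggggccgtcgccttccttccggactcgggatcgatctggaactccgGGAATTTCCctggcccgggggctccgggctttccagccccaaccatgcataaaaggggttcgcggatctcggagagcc
CXCL2: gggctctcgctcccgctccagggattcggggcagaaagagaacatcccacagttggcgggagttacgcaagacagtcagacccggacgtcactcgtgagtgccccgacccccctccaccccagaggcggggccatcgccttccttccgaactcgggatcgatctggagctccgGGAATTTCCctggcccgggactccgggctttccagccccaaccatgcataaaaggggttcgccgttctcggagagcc
CXCL3: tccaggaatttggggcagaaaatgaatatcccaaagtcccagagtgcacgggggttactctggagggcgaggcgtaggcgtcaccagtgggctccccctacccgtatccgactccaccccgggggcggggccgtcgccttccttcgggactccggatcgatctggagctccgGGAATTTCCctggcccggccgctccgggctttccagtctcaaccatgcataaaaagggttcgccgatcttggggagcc
CXCL8: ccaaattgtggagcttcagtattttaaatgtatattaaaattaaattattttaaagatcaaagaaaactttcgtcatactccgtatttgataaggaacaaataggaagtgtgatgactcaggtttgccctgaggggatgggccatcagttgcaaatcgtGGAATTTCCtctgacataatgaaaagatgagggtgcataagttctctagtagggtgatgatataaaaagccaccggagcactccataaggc
NFKBIA: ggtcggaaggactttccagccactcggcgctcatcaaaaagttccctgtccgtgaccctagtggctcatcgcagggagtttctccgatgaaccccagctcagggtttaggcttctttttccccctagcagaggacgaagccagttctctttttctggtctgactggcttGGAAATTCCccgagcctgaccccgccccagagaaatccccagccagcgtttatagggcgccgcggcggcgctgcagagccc
In CXCL1, CXCL2 and CXCL3 the match begins 78, 77 and 78 bases before the start, in CXCL8 91 and in NFKBIA 81. Searched on both strands, the 9 letters occur in the same window of 137 of 27305 genes in the promoter table, or 0.502%. Among the 13 tested chemokine list members with an entry, 6 hold it (CXCL1, CXCL2, CXCL3, CXCL8, CXCL10 and CXCL11), and all 6 were lower in SCC-15; of the 7 without it, 4 were lower. In the NF-κB list 5 members hold it (NFKB1, REL, NFKBIA, NFKBIB and NFKBIZ) and 3 of them were lower, against 18 of 36 without it. In the cytokine list 1 of 22 members with an entry holds it (TSLP, which was lower), and 15 of the 21 without it were lower. Over all 56 tested genes that hold it 42.9% were lower and 7.14% higher, against 18.3% and 13.7% of all genes tested. The 56 include the genes named here, some of them chosen with their values known. A role of the pattern in the line difference was not tested. CXCL2 was 151 ± 21.8 against 2.33 ± 0.4502 CPM and CXCL3 was 16.6 ± 0.199 against 0.213 ± 0.124 CPM. The window of CXCL5 and of CXCL6 holds it too, yet CXCL5 had 4, 7 and 3 counts in the CAL-27 controls and 0 in SCC-15, and CXCL6 had 2 counts in all 6. A match is a string of letters and not a measured binding site.

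Cytokines followed the chemokines. TNF, the tumour necrosis factor, was at 178, 220.4 and 194 CPM in CAL-27 and at 0, 0.115 and 0 CPM in SCC-15, where it had 2 counts in all. The ratio of 5142 has a 95% counting interval of 1423 to 42465. IL1B and IL1A, the interleukin-1 cytokines, were 768 ± 63.9 and 697 ± 47.4 CPM in CAL-27 against 64.1 ± 0.122 and 81.6 ± 2.61 CPM in SCC-15. IL6 was at 73.8, 88.7 and 81.9 CPM in CAL-27 and at 3.2002, 3.56 and 2.404 CPM in SCC-15, and CSF2, the myeloid growth factor GM-CSF, at 46.7, 51.9 and 47.2 and 0.914, 0.918 and 0.8796 CPM. Both were lower in every SCC-15 library (log2 fold changes -4.73 and -5.74). The 3 higher members were IL1RN, the antagonist of the interleukin-1 receptor, IL18 and TNFSF10. IL18, an epithelial interleukin-1 relative, was 5.74 ± 1.06 against 53.5 ± 2.37 CPM, and TNFSF10, the death ligand TRAIL, was 20.2 ± 2.09 against 94.3 ± 6.82 CPM. Over the 29 tested inflammatory cytokines 20 were lower and 3 higher, with a median log2 fold change of -3.18.

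In the NF-κB pathway itself the DNA-binding subunits NFKB1, RELA and REL differed by under 2-fold, while NFKB2, RELB and several inhibitors and targets differed more. NFKB1, the p50 precursor, was at 89.5, 89.4 and 86.8 CPM in CAL-27 and 85.7, 85.3 and 86.4 CPM in SCC-15, a difference that did not pass the test (log2 fold change -0.05 ± 0.045, edgeR adjusted p = 0.36). RELA was 203 ± 3.32 against 126 ± 3.16 CPM, lower by under 2-fold. REL, chosen after its value was seen, did not pass the test (log2 fold change 0.13, edgeR adjusted p = 0.142). The subunits NFKB2 and RELB, which carry the non-canonical branch and were chosen after their values were seen, were 169.9 ± 6.72 and 36.7 ± 1.75 CPM in CAL-27 against 49.5 ± 1.83 and 8.699 ± 1.01 CPM in SCC-15. NFKBIA, the inhibitor IκBα, was at 486, 560.3 and 527 CPM in CAL-27 and at 59.1, 59.7 and 59.2 CPM in SCC-15. TNFAIP3, the A20 deubiquitinase that ends the signal, was at 788, 1025 and 808 CPM in CAL-27 and at 12.4, 14.1 and 12.5 CPM in SCC-15, and BIRC3, an inhibitor of apoptosis induced by the pathway, was 114 ± 7.18 against 2.99 ± 0.361 CPM. The receptors TLR2 and TLR4 had no count in any SCC-15 control library and 11.9 ± 0.964 and 7.55 ± 0.353 CPM in CAL-27. Of 45 genes of subunits, inhibitors and kinases 24 were lower and 1 higher, the latter being OTULIN, which trims linear ubiquitin (46.6 ± 2.24 against 109.9 ± 3.61 CPM).

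**Figure D4:**
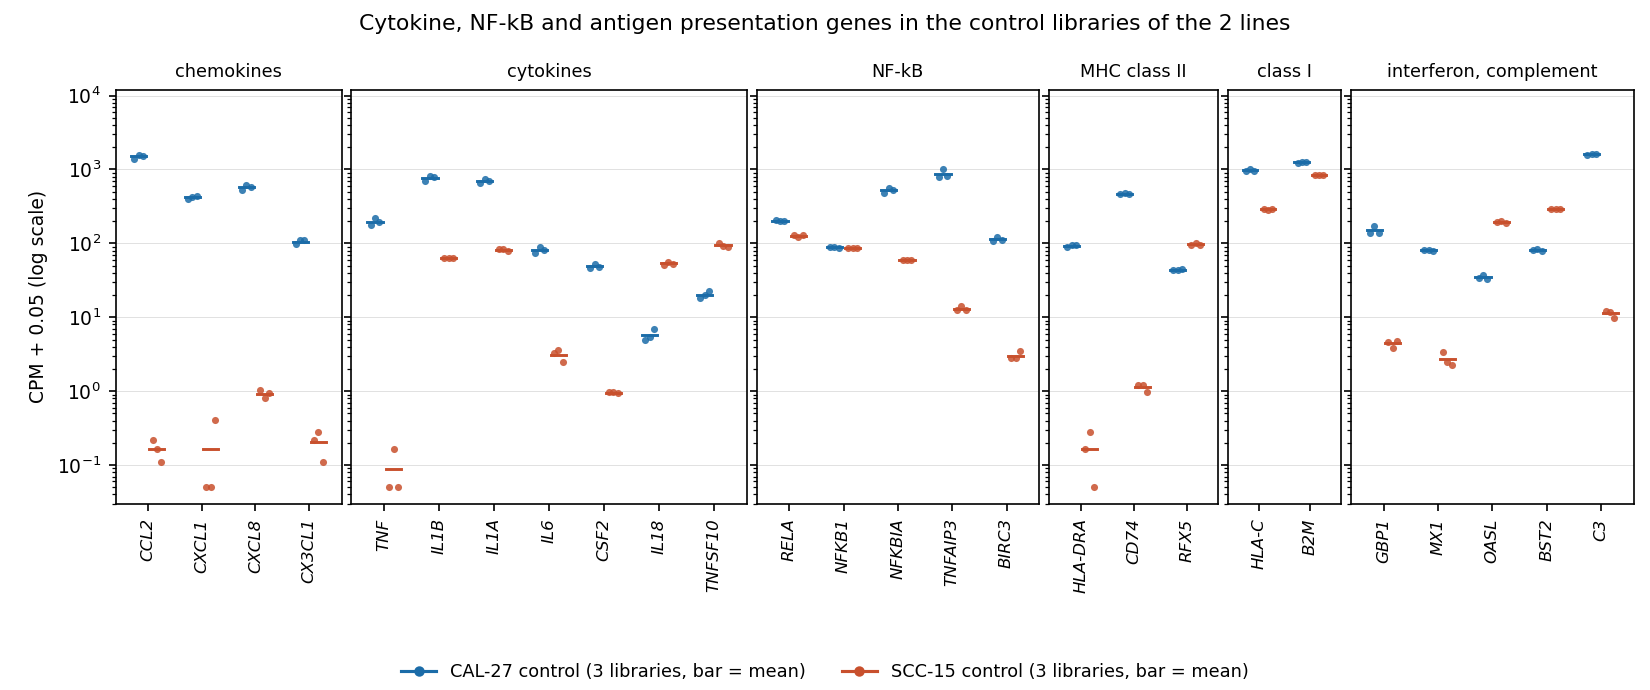
Per-library levels (CPM + 0.05, log scale) of chemokines, cytokines, NF-κB genes, MHC genes and interferon and complement genes in the 3 CAL-27 (blue) and 3 SCC-15 (orange) control libraries, with a bar at each mean. CCL2, CXCL1, TNF and HLA-DRA lie near the bottom of the axis in SCC-15, RELA and NFKB1 lie close together in both lines, and IL18, TNFSF10, OASL and BST2 are high in SCC-15.

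Antigen presentation genes separated by class. HLA-DRA, the alpha chain of HLA-DR, was at 88.5, 95.02 and 93.8 CPM in CAL-27 and at 0.114, 0.2295 and 0 CPM in SCC-15. CD74, the chaperone of class II molecules, was at 469, 486 and 462 CPM in CAL-27 and at 1.14, 1.15 and 0.938 CPM in SCC-15. Both belong to MHC class II, which CAL-27 made while its leukocyte markers were at the low levels given above. Its master activator CIITA, chosen after its value was seen, was 32.2 ± 0.635 against 2.58 ± 0.109 CPM, whereas RFX5, a promoter-binding factor of the same genes, was 44.1 ± 0.993 against 96.9 ± 2.94 CPM. Of 14 tested class II genes and factors 9 were lower and 2 higher (RFX5 and HLA-DQB1).

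MHC class I differed less. HLA-C was at 959, 1012 and 956 CPM in CAL-27 and 293, 286 and 289 CPM in SCC-15, lower by 3.38-fold. B2M, the shared light chain of class I molecules, was 1245 ± 11.95 against 842 ± 7.701 CPM. HLA genes are highly variable, and reads that differ from the reference may be lost, so their levels in 2 lines of different genotype are uncertain. In the class I and peptide loading list 7 of 21 were lower and 0 higher, among them TAPBP, or tapasin (419.8 ± 10.6 against 129 ± 3.55 CPM), and the immunoproteasome subunit PSMB9 (112 ± 1.43 against 36.9 ± 1.82 CPM).

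Interferon-stimulated genes were lower more often than higher, at 25 and 5 of 60 tested. The 5 higher ones were IFIT1, OASL, HERC6, SAMD9 and BST2. GBP1, a guanylate-binding protein, was 150.2 ± 18.7 against 4.41 ± 0.491 CPM and MX1, an antiviral GTPase, 80.2 ± 1.61 against 2.69 ± 0.603 CPM. OASL was at 34.2, 36.7 and 33.3 CPM in CAL-27 and at 192, 200.4 and 186 CPM in SCC-15, and BST2, the virus tether, was 80.4 ± 2.18 against 291 ± 1.88 CPM. So the list was not uniformly lower. C3, the central complement component, was at 1559, 1622 and 1626 CPM in CAL-27 and 12.2, 11.8 and 9.85 CPM in SCC-15. In the list of complement components and regulators 11 of 22 genes were lower and 3 higher. The higher ones were CFD, CFI and TFPI, the last a coagulation inhibitor placed in that list. Among checkpoint and natural killer ligands 11 of 25 were lower and 5 higher (CD86, LGALS1, VSIR, RAET1E and RAET1L). CD274, which encodes PD-L1, was 9.88 ± 0.229 against 0.714 ± 0.297 CPM, NT5E, the CD73 ectonucleotidase, was 173 ± 5.46 against 12.6 ± 0.484 CPM, and LGALS1, galectin-1, was 38.2 ± 1.57 against 188 ± 1.44 CPM.

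In the list of prostaglandin synthesis and receptor genes 7 of 16 were higher and 3 lower in SCC-15. The lower ones were PTGER2, PTGER4 and ALOX5, the last a leukotriene enzyme placed in that list. PTGES, the terminal synthase of prostaglandin E2, was at 31.1, 32.4 and 34.8 CPM in CAL-27 and at 436, 438 and 446 CPM in SCC-15. The aldo-keto reductases AKR1C1, AKR1C2 and AKR1C3, close copies whose reads may be shared, were 3.95 ± 0.428, 1.72 ± 0.431 and 3.304 ± 0.463 CPM in CAL-27 against 32.1 ± 1.47, 27.5 ± 2.72 and 18.2 ± 2.61 CPM in SCC-15.

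EGFR, the receptor that most squamous carcinomas depend on for growth signals, was lower in SCC-15, and its ligands were divided. EGFR was at 1096, 1082 and 1067 CPM in CAL-27 and at 480.1, 492 and 498 CPM in SCC-15, 2.21-fold lower. Its ligands EREG and HBEGF were 123 ± 9.23 and 212 ± 24.2 CPM in CAL-27 against 0.193 ± 0.0362 and 14.4 ± 1.33 CPM in SCC-15, while AREG was 24.6 ± 0.886 against 51.8 ± 0.4001 CPM. NRG4, a ligand of ERBB4, was 0.348 ± 0.151 against 10.2 ± 0.712 CPM, and the partner receptors ERBB2 and ERBB3 were 96.3 ± 2.98 and 56.2 ± 2.3003 against 77.4 ± 1.24 and 2.96 ± 0.379 CPM. In the EGFR family list 7 of 16 genes were lower and 4 higher (AREG, EPGN, NRG4 and LRIG3, the last neither a receptor nor a ligand of the family). Of the other receptor tyrosine kinase genes 18 of 49 were lower and 10 higher.

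Other receptors and binding proteins also separated the lines. FGFR1 was at 0.286, 0.493 and 0.3096 CPM in CAL-27 and at 16.8, 16.7 and 14.8 CPM in SCC-15, and AXL, a receptor linked to drug tolerance, at 245, 219 and 211 and 13.4, 14.3 and 15.3 CPM. The hepatocyte growth factor receptor MET was 419 ± 7.91 against 171 ± 3.86 CPM. IGFBP3 and IGFBP6, which bind insulin-like growth factors, were opposite: IGFBP3 was 1232 ± 60.7 against 24.8 ± 2.14 CPM and IGFBP6 5.397 ± 0.633 against 165 ± 6.39 CPM.

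Most genes induced by ERK as its own brakes were lower in SCC-15. Of 20 feedback phosphatases and Sprouty family members 13 were lower and 2 higher (median -1.17). DUSP4, a nuclear ERK phosphatase, was at 240.4, 272 and 246 CPM in CAL-27 and at 18.6, 19.9 and 19.4 CPM in SCC-15, and DUSP5 was 682 ± 83.6 against 119.7 ± 13.8 CPM. DUSP9, a cytoplasmic phosphatase, was one of the exceptions, at 3.11 ± 0.351 against 73.8 ± 1.02 CPM. In the shTTK libraries of the 2 lines the list had 5 lower and 3 higher members. Of 19 AP-1 and EGR factors 10 were lower and 0 higher, with JUN at 1202, 1328 and 1236 CPM in CAL-27 and 119.5, 119 and 129 CPM in SCC-15.

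Among TGF-β and BMP signalling genes more were higher, with 14 higher and 9 lower of 43. SMAD4, the shared transducer, was at 12.9, 8.55 and 8.48 CPM in CAL-27 and at 36.6, 35.01 and 34.1 CPM in SCC-15, 3.53-fold higher. ID1, a classic BMP target, was at 115, 129 and 128 CPM in CAL-27 and 1080.1, 1016 and 1019 CPM in SCC-15. SMAD7, the inhibitory SMAD, was 5.83 ± 0.6097 against 32.1 ± 1.64 CPM, and SMAD3, which carries TGF-β and activin signals, was 324 ± 5.46 against 104 ± 2.41 CPM. The activin antagonists FSTL3 and FST were opposite in direction: FSTL3 was 7.45 ± 0.404 against 128 ± 9.01 CPM and FST 49.96 ± 1.56 against 0.155 ± 0.123 CPM.

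Notch receptors differed in opposite directions. NOTCH1 was at 135, 143 and 129 CPM in CAL-27 and at 340.0, 339 and 326 CPM in SCC-15, and NOTCH3 at 98.3, 105 and 98.6 and 3.03, 1.38 and 2.404 CPM. The first was 2.46-fold higher and the second 44.4-fold lower in SCC-15. JAG2, a ligand made by basal keratinocytes, was 67.2 ± 1.06 against 297 ± 8.68 CPM. The Notch list held 8 higher and 7 lower genes of 28, and the WNT list 8 and 8 of 34. Among YAP and TEAD factors and targets 12 of 32 were lower and 3 higher (AMOTL1, FOXF2 and DLC1), although YAP1 itself was 196 ± 4.48 against 190.1 ± 5.69 CPM and did not pass the test (edgeR adjusted p = 0.225).

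The mTOR and PI3K genes were close in the 2 lines. MTOR was at 178, 166 and 178 CPM in CAL-27 and 203, 208 and 208 CPM in SCC-15, under 2-fold apart. RPTOR, the scaffold of mTOR complex 1, was at 85.7, 87.8 and 83.3 and 84.2, 83.2 and 84.6 CPM, with overlapping groups and a log2 fold change of -0.03 ± 0.046 (edgeR adjusted p = 0.596). PIK3CA, the catalytic subunit of PI3K, was 40.6 ± 1.31 CPM in CAL-27 and 31.3 ± 1.92 CPM in SCC-15. Of 42 list members 4 were higher (DEPTOR, PRR5, EIF4E and SESN3) and 4 lower (PIK3CD, RRAGA, RRAGD and DDIT4), shares of 9.52% each that lie below those of all genes. The call of DEPTOR was lost at log2 fold changes of 0.83 and 1.09 when CAL-27 replicates 2 and 3 were left out in turn, and of 0.86 when SCC-15 replicate 3 was.

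Of the cell cycle genes the G1 list held more differences than the spindle list. CDKN1C, an imprinted cell cycle inhibitor, was at 0.972, 1.6998 and 1.3004 CPM in CAL-27 and at 59.8, 53.3 and 59.3 CPM in SCC-15, and CDKN2A, an inhibitor of the kinases that start the cycle, was 63.7 ± 3.51 against 139.9 ± 2.298 CPM. CCND1 (cyclin D1) was 232 ± 11.6 against 158 ± 2.48 CPM, and MYC 303 ± 14.9 against 634 ± 17.9 CPM. Of 23 G1 cyclins, kinases and inhibitors 10 were higher and 2 lower, CDKN1A and CDKN2B (median 0.68). In the spindle checkpoint list 19 of 21 genes were not called at this size, the exceptions being MAD1L1 and NDC80, both lower, with PLK1 at 216, 215 and 212 CPM in CAL-27 and 211, 220.0 and 205 CPM in SCC-15.

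Metabolic and detoxifying genes marked each line. GPX2, a glutathione peroxidase, was at 2.402, 2.74 and 2.66 CPM in CAL-27 and at 99.5, 95.03 and 91.9 CPM in SCC-15. ALDH3A1, an aldehyde dehydrogenase, was 6.61 ± 0.878 against 63.7 ± 7.12 CPM and MGST1, a membrane glutathione transferase, 0.0977 ± 0.0374 against 120.5 ± 2.66 CPM. Of 37 NRF2 response genes 8 were higher and 2 lower, with HMOX1, haem oxygenase 1, lower at 15.2 ± 1.65 against 6.52 ± 0.587 CPM. HIF1A, the oxygen-regulated factor, was at 844, 888 and 860.3 CPM in CAL-27 and 236, 223 and 223 CPM in SCC-15, and its targets VEGFA and CA9 were 372 ± 15.1 and 25.4 ± 0.597 CPM against 61.7 ± 3.504 and 1.11 ± 0.162 CPM. The glycolysis and hypoxia list had 13 lower and 4 higher of 35, and the cholesterol list 10 lower and 1 higher of 28. The higher one in the cholesterol list was SREBF1, a lipid synthesis factor (463 ± 15.8 against 1056 ± 12.5 CPM).

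Several genes, among them cancer testis antigens that are silent in most adult tissues, were detected in 1 line and at or near 0 in the other. MAGEA3 and MAGEA6, X-linked cancer testis antigens and near-identical copies, had no count in any SCC-15 control library and were 123, 128 and 114 CPM and 112, 115 and 117 CPM in CAL-27. MAGEA1 had no count in any CAL-27 control library and 65.3, 71.6 and 67.2 CPM in SCC-15. MAGEA4 was 279 ± 4.59 against 43.2 ± 3.21 CPM, so it was measured in both lines. PEG10, an imprinted gene derived from a retrotransposon, was at 0 counts in CAL-27 and 81.8, 80.7 and 81.2 CPM in SCC-15, at least 1405-fold higher. SMO, the Hedgehog signal transducer, was 74.3, 79.8 and 80.3 CPM in CAL-27 with no count in SCC-15, at least 1353-fold lower. APOBEC3G, a cytidine deaminase, was 133 ± 6.85 against 0.0956 ± 0.119 CPM, and 3 of 4 tested APOBEC3 genes were lower, the other two being APOBEC3C and APOBEC3F.

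Patterning genes differed in part. Of 31 tested HOX genes, which record position along the body axis, 9 were higher and 2 lower (HOXA7 and HOXD1). HOXC10 was 10.1 ± 0.812 against 23.5 ± 1.45 CPM and HOXC13 6.51 ± 0.939 against 16.8 ± 1.496 CPM, both higher in SCC-15. Among other homeobox and patterning factors 16 of 42 were higher and 8 lower. PITX1, a factor of the embryonic mouth and hindlimb, was 68.6 ± 2.48 against 153 ± 6.33 CPM. SOX9, a progenitor factor of glands and cartilage, was at 60.5, 89.05 and 69.05 CPM in CAL-27 and 2.97, 3.16 and 2.81 CPM in SCC-15. IRX2 and PAX8, lower in SCC-15 too, were 131 ± 3.25 and 13.9 ± 0.352 against 33.9 ± 0.994 and 1.58 ± 0.318 CPM.

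Genes of mucosal secretion were mostly lower in SCC-15, 10 of 17, with MUC4 and LY6D the 2 higher ones. LCN2, the iron-trapping lipocalin, was 272 ± 11.1 against 4.19 ± 0.936 CPM, and WFDC2 229.5 ± 12.998 against 3.67 ± 0.288 CPM. LY6D, a surface protein of squamous epithelia, was at 6.81, 9.102 and 7.86 CPM in CAL-27 and 317, 323 and 317 CPM in SCC-15. Markers used for stem-like oral cancer cells were also divided: CD44, the hyaluronan receptor, was 769 ± 5.78 against 250.5 ± 3.99 CPM, whereas ALDH1A3, which makes retinoic acid, was 19.3 ± 1.41 against 181 ± 6.73 CPM and CD24 1.13 ± 0.227 against 41.2 ± 4.54 CPM. That list held 7 higher and 3 lower genes of 17, the lower ones being CD44, POU5F1 and SOX9.

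In the WNT list, WNT7B and WNT7A, ligands of stratified epithelia, were 103 ± 2.68 and 35.2 ± 0.466 CPM in CAL-27 against 34.3 ± 2.85 and 7.36 ± 0.904 CPM in SCC-15. WNT9A and WNT10B were 4.94 ± 0.735 and 0.303 ± 0.382 CPM against 41.6 ± 1.14 and 7.64 ± 1.195 CPM, and so were higher in SCC-15. NKD2, an inhibitor of the pathway, was 1.28 ± 0.222 against 31.5 ± 1.51 CPM, and LGR4, a receptor for R-spondins, 142 ± 0.468 against 51.3 ± 1.63 CPM.

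The same line contrast in the shTTK libraries, which share no library with the controls, gave 2212 genes higher (13.1%) and 3279 lower (19.3%). Of the 2318 genes higher in the SCC-15 controls 1759 (75.9%) were called higher there too, and of the 3108 lower genes 2637 (84.8%) were called lower, while 11 were called in the opposite direction. E-cadherin (CDH1) was 418 ± 4.698 CPM in the CAL-27 shTTK libraries and 40.5 ± 1.76 CPM in those of SCC-15, and KRT13 was 2.31 ± 0.295 and 868 ± 11.6 CPM. CXCL8 was 480.5 ± 29.9 and 0.419 ± 0.173 CPM, HLA-DRA 89.6 ± 2.65 and 0.0373 ± 0.0645 CPM, and CD74 462 ± 7.24 and 0.855 ± 0.283 CPM. Each of these 5 genes was thus far apart in both sets of libraries. The chemokine list had 15 lower and 2 higher members in the shTTK libraries, and the list of basal and hyperproliferative keratins 2 lower and 3 higher. KRT5 differed by 1.58 ± 0.028 in the controls and by 0.20 in the shTTK libraries, and the interaction of -1.39 ± 0.038 passed the test (edgeR adjusted p = 1.52e-44). KRT8 and KRT18 differed by -1.15 and -1.12 in the controls but by 0.02 and -0.21 in the shTTK libraries, with interactions of 1.17 ± 0.039 and 0.91 ± 0.042 (edgeR adjusted p = 4.47e-39 and 2.51e-30). FN1 differed by -2.34 ± 0.044 in the controls and by -0.41 in the shTTK libraries (interaction 1.93 ± 0.061, edgeR adjusted p = 1.13e-37). The genes farthest from the diagonal in the plot of both contrasts are given in the closing section.

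**Figure D5:**
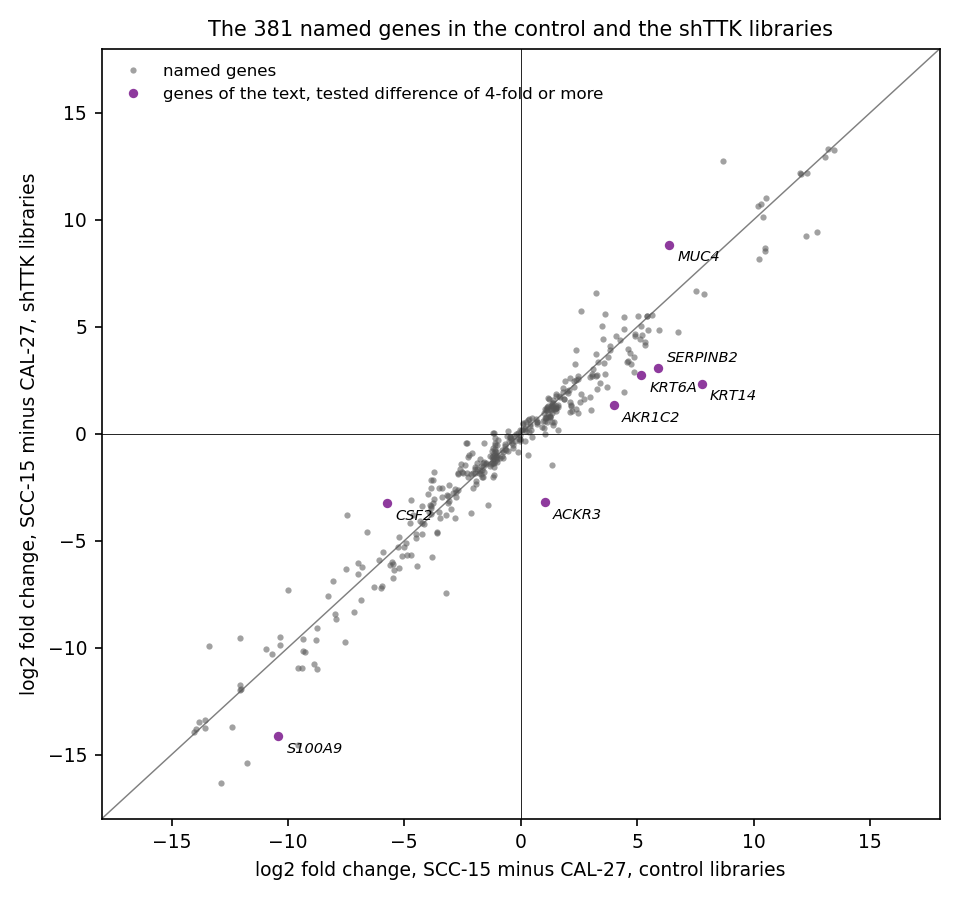
Log2 fold change of SCC-15 minus CAL-27 for the genes named by rule, in the control libraries (horizontal axis) and in the shTTK libraries (vertical axis), with a grey line of equality. Most points lie along the line, and genes of the text whose 2 contrasts differ at least 4-fold in a tested interaction, such as KRT14, are coloured and labelled. Positions beyond about 10 on either axis come from genes at or near 0 counts in 1 line and depend on the small count that edgeR adds.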

How the data were processed

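Poly(A) RNA was sequenced with strand-specific paired reads, per the labels' protocols. The tools named are STAR 2.7.7a, featureCounts 2.0.1 and Trim Galore 0.6.6, with build hg38, per the submitters' processing notes. No source used here gives the annotation release or the handling of strand and multiple matches. The deposited values are whole-number counts per gene made by the authors. Lines whose symbol had been turned into a date (27, holding 0.183% of counts) were kept in the counts but matched no gene, and none is named here. The other symbols matched GENCODE 29. Genes passing edgeR's count filter (16946) were fitted in all 12 libraries with 4 group means (edgeR 4.0.16, trimmed mean factors, robust quasi-likelihood test, 8 residual degrees of freedom, R 4.3.3), with p-values adjusted over all genes. The script was tested on simulated counts. DESeq2 1.42.0, limma 3.58.1, other filters, a replicate block and leaving out each library were alternatives.

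Groups came from the sample titles. The comparison and the gene lists were chosen with earlier results of these data known. Genes were named by rule: the 12 per direction with the largest change above 20 CPM, in each list the 4 per direction with the largest change above 5 CPM and the 2 most abundant, and fixed anchor genes. Genes named to spell out a count of 5 or fewer, the promoter genes outside the rule, and those of the chromosome stretches were chosen after their values were seen. Some genes of the lists are not reported here by name. Promoter sequences are RefSeq's (GRCh38.p14).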

Additional observations from a re-analysis of the deposited data

Results flagged for a closer look

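For 10 genes of the text the difference between the lines was not the same in the control and in the shTTK libraries. The line difference in the shTTK libraries minus that in the controls (the interaction) passed edgeR's test, was at least 4-fold, and rested on more than 3 counts in each of the 4 groups. In all, 132 of 262 genes of the text passed the interaction test at any size. The same share over all genes was not computed, and many of these genes were picked for large line differences. The count therefore describes the named genes only.

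KRT14 stood out, with an interaction of -5.44 ± 0.083 (log2, edgeR adjusted p = 1.21e-50). It was 3.44 ± 0.799 CPM in the CAL-27 controls, 73.2 ± 2.96 CPM in CAL-27 shTTK, 763 ± 32.1 CPM in the SCC-15 controls and 369.6 ± 10.9 CPM in SCC-15 shTTK. KRT6A gave -2.44 ± 0.053, with 41.7 and 209.9 CPM in CAL-27 and 1518 and 1402 CPM in SCC-15, each time controls first. SERPINB2 gave -2.84 ± 0.38, with 0.562 and 0.933 CPM in CAL-27 and 34.9 and 7.82 CPM in SCC-15.

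CSF2 gave 2.50 ± 0.34, with 48.6 and 8.88 CPM in CAL-27 and 0.904 and 0.934 CPM in SCC-15. ACKR3, a scavenging chemokine receptor, gave -4.24 ± 0.23 and changed sign between the sets: it was 2.602 and 19.3 CPM in CAL-27 and 5.33 and 2.08 CPM in SCC-15. S100A9 gave -3.72 ± 1.13, with 561 and 1499 CPM in CAL-27 and under 1 CPM in every SCC-15 library, so its size rests on few counts.

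AKR1C2 gave -2.67 ± 0.21 (1.72 and 5.42 CPM in CAL-27, 27.5 and 13.7 CPM in SCC-15). MUC4, a membrane mucin, gave 2.47 ± 0.57 (0.412 and 0.161 CPM, 34.1 and 77.8 CPM). CFI, complement factor I, gave -2.99 ± 0.83 at levels near or below 1 CPM in each group. MT-RNR2 gave -2.16 ± 0.60, and its mean in the SCC-15 controls rests on library 1, whose share of 0.681% of counts was above 0.208% and 0.219% in libraries 2 and 3.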

How the results depend on the processing

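Counts of genes kept within 1.5 times of those reported under every alternative run. Without the 6 shTTK libraries 2308 genes were at least 2-fold higher and 3109 lower, with DESeq2 2215 and 3098, with DESeq2's kind of size factors in edgeR 2261 and 3155, with limma-voom 2327 and 3118, without the count filter 2728 and 3802, with a filter at 1 CPM 1994 and 2666, and with a test against a 2-fold change itself 1608 and 2358. Leaving out each control library in turn gave 2263 to 2348 higher and 3034 to 3060 lower. With the replicate number as a block the counts were 2312 and 3096. Deviations of same-numbered libraries correlated at -0.04, 0.01 and 0.02 over 12052 genes, so no shared variation was seen. That does not settle whether libraries of the same number were handled together.

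Of 3399 recomputed gene values, 3388 kept direction and side of the threshold, 8 lost the test and 3 gained it, and none turned direction. AGRN lost it when any of 3 libraries was left out, DEPTOR likewise, ITGA7 without CAL-27 control replicate 1 and MT-RNR2 in the control libraries alone, while SMAD2 gained it under 3 alternatives. List medians moved by more than their spread between libraries in 36 of 650 cases, none under the block, DESeq2, limma-voom or the controls alone. In 15 of the 650 cases a list median changed sign or became 0. Without the count filter, which adds genes near 0, they were 1.28 for basal and 1.85 for suprabasal keratins, 0.00 for cornified, cancer testis and stem-like lists, -0.78 for adherens and tight junctions, -0.12 for integrins, -2.64 for cytokines, -4.21 for chemokines, -0.63 for MHC class I, -1.12 for APOBEC3, -0.98 for mucins, -0.46 for 11q22 and -0.024 for 3q26 to 3q28. At 1 CPM they were 7.22 for suprabasal keratins, -0.080 for collagens, -6.25 for chemokines, -1.30 for complement, -1.05 for the EGFR family and -1.76 for mucins. With 1 library left out the ranges were 4.48 to 5.40 for suprabasal keratins, -0.57 to -0.37 for the mesenchymal list, -0.99 to -0.73 for the EGFR family, -1.80 to -1.40 for mucins, -1.32 to -0.93 for complement, -0.80 to -0.67 for 9p21, -0.22 to -0.072 for Notch, 0.37 to 0.41 for hemidesmosomes, -0.34 to -0.040 for plasminogen activation, -1.31 to -0.99 for AP-1 and -1.56 to -1.44 for adherens and tight junctions.

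With 1 line per carcinoma and unstated replicate type, the small p-values describe these libraries and not tongue carcinomas in general. At totals of 16180755 counts and more, 0 counts over 3 libraries allow up to 0.0578 CPM in CAL-27 and 0.0577 CPM in SCC-15, counting error only.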

Other observations

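Some genes were detected in 1 line and absent or nearly so from the other. Of the protein-coding genes tested, 58 had at most 3 counts over the CAL-27 controls and at least 5 CPM in SCC-15, and 73 showed the reverse. Among the 58, 13 lie on chromosome 19, which holds 7.01% of the 13448 tested protein-coding genes, and among the 73 there are 3 on it. Neighbouring KRAB-type zinc finger genes on chr19 account for several of them. From ZNF808 to ZNF845 (chr19, hg38), 11 tested zinc finger genes follow each other, namely ZNF808, ZNF701, ZNF83, ZNF611, ZNF600, ZNF28, ZNF468, ZNF888, ZNF816, ZNF160 and ZNF845. ZNF845 had 0.0191 CPM in the CAL-27 controls and the others had no count, while in SCC-15 they were between 1.22 CPM (ZNF808) and 10.4 CPM (ZNF468). The nearest tested zinc finger genes before them were not silent in CAL-27. ZNF480 was 8.42 ± 0.243 CPM there and 11.96 ± 0.614 CPM in SCC-15, and ZNF766 7.99 ± 0.724 and 8.23 ± 0.583 CPM. Farther out the genes were mixed. ZNF614 was nearly absent from CAL-27 (0.0183 against 7.77 CPM), and ZNF836 was low in both lines (0.320 against 0.596 CPM). ZNF841 was measured in both (5.76 against 6.07 CPM). The stretch from ZNF808 to ZNF845 was picked after its values were seen. These genes share sequence, and how reads matching several of them were counted is not given in the sources used here. Over all 165 tested zinc finger genes of chromosome 19, 44 were at least 2-fold higher and 26 lower, with a median log2 fold change of -0.11. Of 226 tested zinc finger genes on other chromosomes 30 were higher and 27 lower by that rule. The shares over all genes tested were 13.7% higher and 18.3% lower.

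The genes next to a few carcinoma genes were compared as well. At 11q13, around the cyclin D1 gene CCND1, all 11 tested genes were lower in SCC-15 by edgeR's adjusted p and 5 of them at least 2-fold. Over all genes 38.2% were lower and 37.8% higher by adjusted p, and 18.3% and 13.7% at least 2-fold. At 11q13 the list held CTTN, the cortactin gene, at 529 ± 15.7 CPM in CAL-27 and 301 ± 10.8 CPM in SCC-15. By the same adjusted p, at 9p21 9 of 13 tested genes were lower and CDKN2A was the 1 that was higher (4 and 1 at least 2-fold), while its neighbours MTAP and CDKN2B were 74.3 ± 1.53 and 19.2 ± 2.07 CPM against 40.1 ± 2.14 and 8.47 ± 0.618 CPM. Around YAP1 at 11q22, 4 of 12 tested genes were at least 2-fold higher (MMP1, MMP12, MMP13 and CEP126) and 3 at least 2-fold lower (BIRC2, BIRC3 and TMEM123), with a median log2 fold change of -0.12. Around SMAD4 at 18q21, 11 of 15 tested genes were higher by adjusted p and 1 lower (3 and 0 at least 2-fold), although SMAD2 was 40.1 ± 2.58 against 36.6 ± 1.02 CPM. In windows of 25 consecutive genes the lowest median log2 fold change was -1.77, on chromosome 11 from EIF3M to C11orf74 with 3 genes higher. The highest was 1.26, on chromosome 3 from ELP6 to P4HTM with all 25 genes higher. Medians of 90% of windows lay between -0.67 and 0.73. Copy number was not measured in these libraries.

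Markers of endothelium gave a further contrast. CDH5, the endothelial cadherin, was 106, 108 and 99.5 CPM in the CAL-27 controls and 1.03, 1.03 and 0.645 CPM in the SCC-15 controls, while the endothelial receptor gene KDR had no count in either. Summed over the endothelial marker list the level was 103 to 110 CPM in CAL-27, and CDH5 made up nearly all of it. In SCC-15 the sum was 3.64 to 4.57 CPM.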
